A study of Drosophila melanogaster with 8 samples.

Results

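The X-linked genes with exactly 2 listed poly(A) sites are 77 of the 529 entries (a gene with 1 of its transcripts) whose 3' ends were counted in Drosophila melanogaster testes. Among the listed entries they were chosen by position and site number alone: every entry whose sites lie on X and that has 2 counting windows. The deposited list of sites is named for bam against spermatocytes. How it was drawn up is not given, so the entries cannot be taken as testis genes at large. Another 4 X-linked entries have 3 windows and are not members, and the 427 autosomal entries with exactly 2 windows serve as the comparison set. In each entry the site nearer to the start of the gene is called proximal and the other distal, and the proximal share is the percentage of the gene's reads at the proximal site.

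Most transcripts can be cut and polyadenylated at more than 1 place, and the choice of a proximal or distal site sets how much 3' UTR, the untranslated end that RNA-binding proteins and microRNAs read, the mRNA keeps. Cbc is the fly Clp1, an RNA kinase, and PCF11 binds the tail of RNA polymerase II; both belong to the machinery that cleaves nascent transcripts and ends transcription. Males carry a single X, and in somatic cells the dosage compensation complex raises its transcription, while how far the male germ line compensates is debated.

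The 8 libraries are QuantSeq forward 3' end libraries of testes, about 150 pairs per library, in 4 groups of 2. All males, controls included, carried nosGal4/Y and bam86,bamGal4/bam1, so that they lacked functional bam, the gene that lets spermatogonia stop dividing and become spermatocytes, and expressed Gal4 from germ line drivers. The control had +/+ on the second chromosome and no UAS transgene; the other groups had UAS>cbc-V5/+, UAS>PCF11-RF-HA/+, or UAS>cbc-V5+PCF11-RF-HA/+ in its place. Crosses were kept 3 days at 25 degrees and progeny at 29 degrees. The labels do not say whether libraries of a group come from separate crosses, so p-values measure only the spread between these libraries. The overexpressed transcripts cannot be checked, because neither cbc nor Pcf11 is among the listed entries, and of the tissue markers looked for only the cyst and hub genes Imp, chinmo and zfh1 are listed.

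Reads at the 77 genes came to between 36376 and 51350 per library, with a median of 202 to 260 reads per gene. The X-linked genes held 15.7% ± 0.432 (SD, n = 2) of all listed reads in the control, 15.2% ± 0.214 with cbc, 15.1% ± 0.228 with PCF11 and 15.4% ± 0.103 with both. The 7 members with most control reads, led by mahe, Imp and Usp7, held 57.1% of the members' control reads. At such counts precision varies widely: the 53 of 159 reads of TH1 at the proximal site in control library 1 give 33.3% with a 95% exact binomial interval of 26.1% to 41.2%, while the 79 of 3326 reads of Usp7 give 2.38% with an interval of 1.88% to 2.95%. Without molecular identifiers, these intervals hold the error of counting and nothing else. Libraries of a group differed from each other: the median proximal share of the members was 30.3% and 25.4% in the PCF11 pair, and 22.9% and 27.5% in the pair with both transgenes. In library 1 of the latter pair the share was lower than in library 2 for 36 of the 73 members with enough reads for the usage test, and for all 6 genes reported here as raised.

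All 77 proximal windows lay in an annotated 3' UTR, as did 70 of the distal windows, and the other 7 distal windows lay downstream of the annotated gene. The sites of a gene were a median of 455 bp apart (interquartile range 246 to 841), against 425 bp (222 to 740.5) on the autosomes. The closest pairs were those of CG1840 at 103 bp and CG6961 at 107 bp, and the widest were those of Adar, the RNA-editing deaminase, at 4067 bp, and of NetB, a secreted axon guidance protein, at 3913 bp. In 17 members (22.1%) a window overlapped another annotated gene, against 29.3% of the autosomal entries. Reads were counted without strand, so reads of such genes cannot be assigned with certainty.

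In the control the proximal site was the lesser site of most members. Of the 73 members with enough reads for the usage test, 9 (12.3%) had a control share under 5%, 49 had 5% to 50% and 15 (20.5%) had 50% or more, while of 421 autosomal entries 96 (22.8%) were under 5% and 62 (14.7%) at 50% or more. The 4 members left out of the test were CG12991, CG32639, NetB and hec, which had too few reads at the proximal site or in all. The highest control shares were those of ewg at 94.8%, r-cup at 94.0% and CG7766 at 92.2%, of which r-cup rested on 7 and 50 reads. The lowest were Lztr1 and ebo, with no proximal read in either control, and sno at 0.203%. For ebo, 0 of 1071 reads in the controls together allows a share of up to 0.280% by counting error alone (3 reads of 1071, about a 95% bound). The spread between libraries is not part of that bound. Across the tested members the control share showed no monotonic relation to the distance between sites (Spearman's rho = -0.01, n = 73 genes of the same libraries, given as a description).

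The median X-linked share was 24.7% and 22.6% in the control pair, 30.7% and 29.3% in the cbc pair, 30.3% and 25.4% in the PCF11 pair, and 22.9% and 27.5% in the pair with both transgenes. The medians of the cbc and PCF11 libraries lay above both controls, though by little for PCF11 library 2 (25.4% against 24.7%). The libraries with both transgenes did not separate from the controls. The autosomal median was lower in every library, at 18.0% and 17.9%, 17.8% and 19.8%, 20.2% and 22.2%, and 21.2% and 19.3% in the same order. Summed over reads instead of genes, the X-linked share was 44.3% ± 1.17 (SD, n = 2) in the control, 42.2% ± 0.0664 with cbc, 43.8% ± 1.15 with PCF11 and 42.1% ± 0.574 with both, so that the pooled share did not rise where the median did. The autosomal pooled share was 26.9% ± 0.166, 31.0% ± 0.911, 33.5% ± 0.807 and 31.8% ± 1.08. A pooled share depends on the reads of each gene as well as on its site use. Of the members' reads, mahe held 14.7% in the control and 8.96%, 9.51% and 8.44% with cbc, PCF11 and both. In the same order eIF2alpha held 6.98%, 13.4%, 11.8% and 11.6%.

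**Figure D1:**
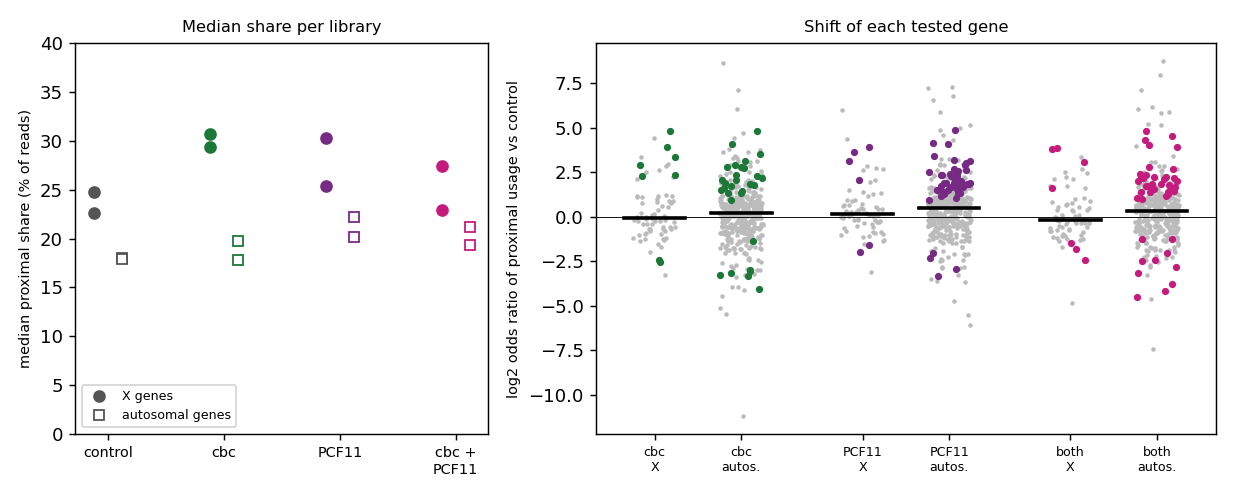
The left panel plots the median proximal share (% of reads) over the X-linked genes (filled circles) and the autosomal genes with 2 sites (open squares) in each library, and the right panel plots the log2 odds ratio of proximal usage against the control for each tested gene, with coloured points for genes at an adjusted p under 0.05 and a bar for the median. The X-linked medians lie above the autosomal ones in all 8 libraries, while the median odds ratio of the X-linked genes lies below that of the autosomal genes in all 3 comparisons.

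Usage was tested per gene as the odds of a proximal against a distal read (edgeR quasi-likelihood test over all 8 libraries, p-values adjusted by Benjamini and Hochberg over the 516 testable entries of all chromosomes). With cbc, 8 of 73 members passed an adjusted p of 0.05, or 10.96% against 7.56% of all entries tested; 6 moved to the proximal site (5.62% of all entries did) and 2 to the distal site (1.94%). With PCF11, 6 passed, or 8.22% against 10.5% of all, 4 of them proximal (9.11% of all) and 2 distal (1.36%). With both, 7 passed, or 9.59% against 10.3% of all, 4 of them proximal (7.56% of all) and 3 distal (2.71%). These shares lie near the background. The 3 comparisons share the control libraries and are not independent of each other. Without cbc library 1 or without cbc library 2 no member passed for cbc, without control library 2 it was 5, without either PCF11 library 2 members passed for PCF11, and for both it was 1 without library 2 of that group and 4 without control library 2.

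The members as a set showed small median shifts. The median log2 odds ratio of the 73 members was -0.09 with cbc, 0.17 with PCF11 and -0.19 with both, against 0.14, 0.36 and 0.27 over all tested entries and 0.19, 0.47 and 0.33 over the 421 autosomal ones. With cbc, 21 members had both libraries above both controls and 16 had both below, where 28.7% and 20.7% of all tested entries did so. For PCF11 the counts were 23 and 12, beside 36.8% and 15.9% of all, and for both they were 19 and 19, beside 32.8% and 21.3% of all. Whether X-linked genes as a set differ from autosomal ones was not tested.

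In all, 9 members passed in at least 1 comparison, none of them in opposite directions. TH1, CG14207 and nonC rose and Usp7 and ewg fell in all 3 comparisons, CG1486 rose with cbc and with PCF11, sno rose with cbc and with both, IntS6 rose with cbc, and CoRest fell with both. Their sites were 117 to 927 bp apart, none of their windows overlapped another gene, and all 18 windows lay in annotated 3' UTRs. The level of each site, given as CPM (counts scaled to the listed reads of a library, with TMM factors), was not tested singly.

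TH1 encodes a subunit of NELF, the complex that holds RNA polymerase II paused near promoters. Its proximal window is X:16389177-16389207 and its distal window X:16388820-16388850 on the minus strand of BDGP6. The proximal share was 33.3% and 22.6% in the control pair, 78.0% and 81.9% in the cbc pair, 74.5% and 79.5% in the PCF11 pair, and 66.8% and 83.9% in the pair with both transgenes. All 6 overexpression libraries lay far above both controls. The log2 odds ratios were 3.38 ± 0.54 (SE; edgeR adjusted p = 0.00743), 3.13 ± 0.55 (0.0094) and 3.08 ± 0.55 (0.0135). The level at the proximal site was 206 and 109 CPM in the controls and 2017 and 2408 CPM with cbc, while the distal site had 413 and 373 CPM and then 568 and 531 CPM, so most of the added reads were proximal.

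CG14207, a small heat shock protein of the HspB8 type, has its windows at X:19611102-19611132 and X:19611219-19611249 on the plus strand, 117 bp apart. Its proximal share was 21.8% and 19.5% in the control pair, 56.9% and 54.8% in the cbc pair, 50.97% and 52.7% in the PCF11 pair, and 39.5% and 49.7% in the pair with both transgenes. No overexpression library reached down to the controls. The log2 odds ratios were 2.29 ± 0.31 (edgeR adjusted p = 0.00378), 2.06 ± 0.31 (0.00588) and 1.64 ± 0.31 (0.0161). Reads at both sites were higher than in the controls in every overexpression library, with 249 and 285 CPM proximal in the controls against 1289 to 2361 CPM, and 896 and 1181 CPM distal against 1220 to 2389 CPM.

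CG1486 had the largest odds ratio among the members that passed with cbc. Its windows are X:21327754-21327784 and X:21328123-21328153 on the plus strand. The proximal share was 4.94% and 7.69% in the control pair, 71.5% and 59.6% in the cbc pair, 48.3% and 52.8% in the PCF11 pair, and 26.9% and 54.6% in the pair with both transgenes. The groups did not overlap the controls, but the libraries with both transgenes lay far apart: 18 of 67 reads in library 1, with an exact interval of 16.8% to 39.1%, and 113 of 207 in library 2, with 47.5% to 61.5%. The log2 odds ratios were 4.82 ± 0.92 with cbc (edgeR adjusted p = 0.0207), 3.91 ± 0.92 with PCF11 (0.028) and 3.35 ± 0.93 with both, which did not pass (0.0545). The proximal site rose from 15.6 and 15.2 CPM to 392 and 401 CPM with cbc, and the distal site read 299.9 and 182 CPM and then 156 and 272 CPM.

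nonC encodes Smg1, the kinase of nonsense-mediated mRNA decay, and its windows are X:6837877-6837907 and X:6838115-6838145 on the plus strand. Its proximal share was 45.5% and 38.0% in the control pair, 78.8% and 78.2% in the cbc pair, 92.7% and 86.6% in the PCF11 pair, and 87.8% and 94.0% in the pair with both transgenes. The PCF11 libraries and those with both transgenes lay above the cbc libraries, which lay above the controls. The log2 odds ratios were 2.35 ± 0.59 (edgeR adjusted p = 0.049), 3.63 ± 0.62 (0.00892) and 3.84 ± 0.62 (0.011), and the first did not pass when any 1 of the 4 libraries compared was left out (adjusted p 0.0673 to 0.184). In nonC the sites moved in opposite directions: with PCF11 the proximal level was 853 and 725 CPM against 358 and 297 CPM in the controls, and the distal level 67.4 and 112 CPM against 428 and 486 CPM. The reads of both sites together did not pass in any comparison.

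IntS6 is a subunit of Integrator, which cleaves small nuclear and other nascent RNAs, and has windows at X:5739519-5739549 and X:5738663-5738693 on the minus strand. Its proximal share was 12.1% and 4.03% in the control pair, 34.5% and 40.2% in the cbc pair, 36.0% and 29.2% in the PCF11 pair, and 19.9% and 41.8% in the pair with both transgenes. All 6 lay above the controls, but only cbc passed, with a log2 odds ratio of 2.91 ± 0.72 (edgeR adjusted p = 0.045), beside 2.61 ± 0.72 (0.0519) and 2.44 ± 0.72 (0.068). Leaving out control library 2 gave 2.10 for cbc and leaving out control library 1 gave 3.81, and it passed only in the latter of the 4 fits that leave out 1 library (adjusted p 0.0353 to 0.203). sno, a nuclear protein named strawberry notch that acts in Notch signalling, rests on few proximal reads. Its proximal share was 0.279% and 0.128% in the control pair, 3.49% and 2.38% in the cbc pair, 1.99% and 0.676% in the PCF11 pair, and 2.27% and 3.11% in the pair with both transgenes, all 6 above the controls. There were 2 of 1142 proximal reads in the controls together, 24 of 781 with cbc, 8 of 597 with PCF11 and 18 of 674 with both. The ratios of the shares to the control were 17.5 (95% exact counting interval 4.36 to 153), 7.65 (1.53 to 74.0) and 15.2 (3.65 to 136). The usage test passed for cbc and for both (edgeR adjusted p = 0.0238 and 0.0241) and not for PCF11 (0.0956).

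Usp7, the deubiquitinase that in flies acts on histone H2B, used its proximal site rarely in every library and more rarely with the transgenes. Its windows are X:12024019-12024049 and X:12023543-12023573 on the minus strand. The proximal share was 2.38% and 1.87% in the control pair, 0.405% and 0.323% in the cbc pair, 0.674% and 0.421% in the PCF11 pair, and 0.302% and 0.483% in the pair with both transgenes. All 6 overexpression libraries lay below both controls. The log2 odds ratios were -2.54 ± 0.33 (edgeR adjusted p = 0.00378), -1.97 ± 0.31 (0.00643) and -2.45 ± 0.32 (0.00431). The proximal site had 308 and 219 CPM in the controls and 36.5 to 79.3 CPM in the others, while the distal level, 12647 and 11481 CPM in the controls, ranged from 11259 to 13361 CPM and overlapped them.

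ewg, a DNA-binding factor related to human NRF1, is the member with the highest control share, and its windows are X:270487-270517 and X:269614-269644 on the minus strand. The share was 93.6% and 96.0% in the control pair, 76.2% and 77.9% in the cbc pair, 82.7% and 88.4% in the PCF11 pair, and 85.9% and 81.8% in the pair with both transgenes. No overexpression library reached the controls. The log2 odds ratios were -2.45 ± 0.42 (edgeR adjusted p = 0.0103), -1.61 ± 0.42 (0.0423) and -1.82 ± 0.42 (0.0282). With cbc the proximal site had 1324 and 1460 CPM against 2769 and 2313 CPM in the controls, and the distal site 412 and 414 CPM against 191 and 97.1 CPM.

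CoRest, the partner of the histone demethylase Lsd1 in a repressor complex, has windows at X:19529944-19529974 and X:19530871-19530901 on the plus strand. Its proximal share was 30.8% and 29.6% in the control pair, 17.7% and 20.1% in the cbc pair, 12.5% and 21.6% in the PCF11 pair, and 12.9% and 13.9% in the pair with both transgenes. All 6 lay below the controls, and only the difference with both passed, at a log2 odds ratio of -1.48 ± 0.40 (edgeR adjusted p = 0.0486), beside -0.89 (0.203) and -1.12 (0.118). It did not pass when any 1 of the 4 libraries compared was left out (adjusted p 0.0857 to 0.204). Of the 21 usage calls of members, 2 passed in all 4 such fits: CG14207 with PCF11 and Usp7 with both. Without either cbc library every member lost its call for cbc, and CG1486 also lost it without control library 1, and IntS6 and sno without control library 2. For PCF11, TH1 and ewg lost the call without either PCF11 library, nonC without library 1 and Usp7 without library 2 of that group, ewg also without control library 2, and CG1486 without any 1 of the 4. For both, TH1, CG14207 and nonC lost it without library 2 of that group, and sno and ewg without either of its libraries or control library 2.

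**Figure D2:**
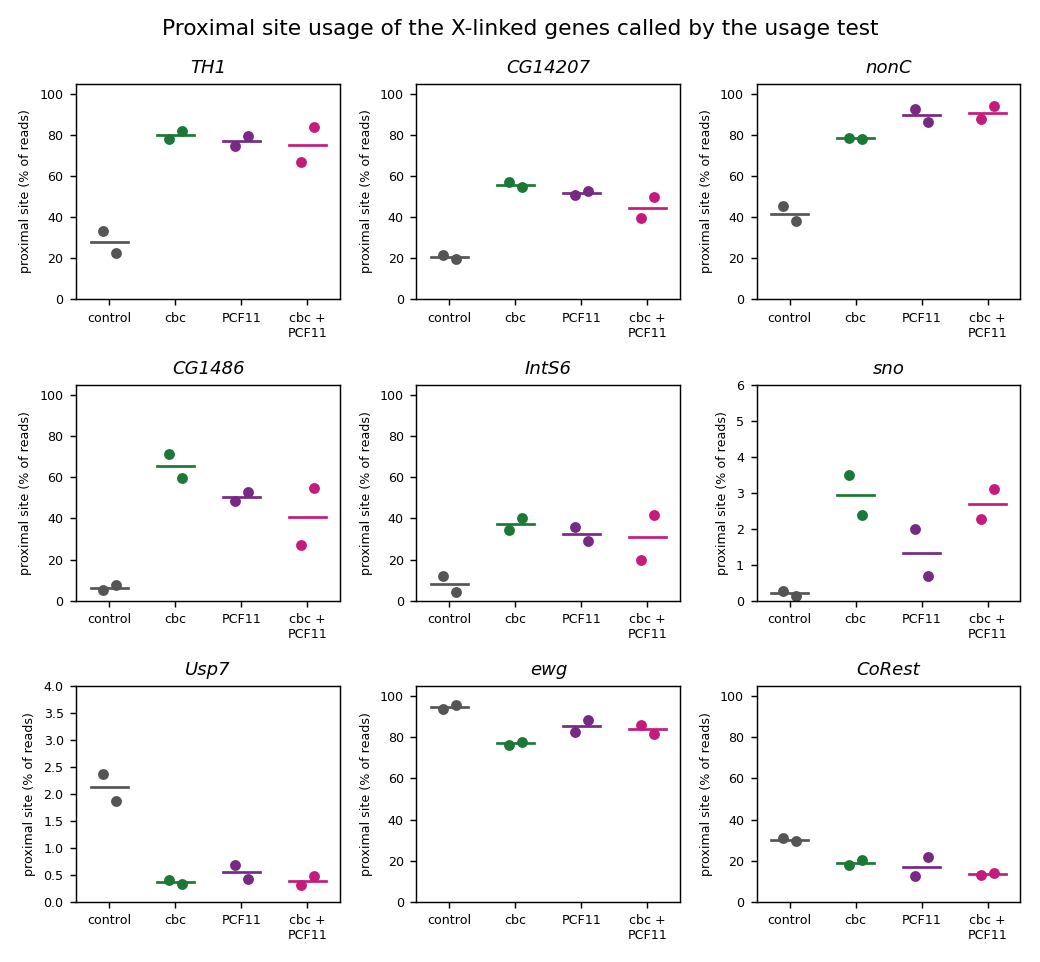
Proximal share (% of a gene's reads, linear axes, with shorter axes for sno and Usp7) in each of the 8 libraries for the 9 X-linked genes that passed the usage test in at least 1 comparison; dots are libraries and bars are group means of n = 2. The overexpression libraries lie above both controls for the first 6 genes, TH1 to sno, and below both for Usp7, ewg and CoRest.

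**Figure D3:**
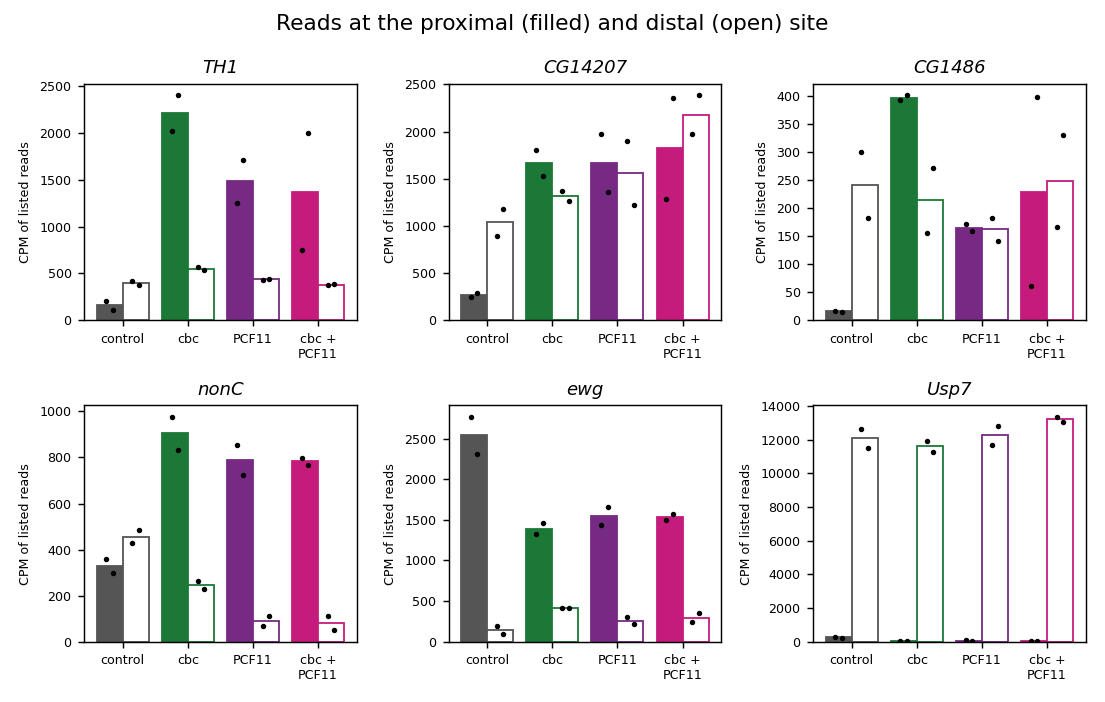
Level at the proximal (filled bars) and distal (open bars) site in CPM of listed reads, as group means of n = 2 with dots for the libraries, on axes that start at 0. In TH1, CG14207 and CG1486 the proximal bar grows, in nonC and ewg the sites move in opposite directions, and in Usp7 the proximal bar shrinks beside a distal level of 11259 to 13361 CPM.

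Some members with large shares of change did not pass, and are named here after their values were seen. Arp2, a subunit of the actin-nucleating Arp2/3 complex, had proximal shares of 17.4% and 44.8% in the control pair, 69.9% and 84.2% in the cbc pair, 79.8% and 72.0% in the PCF11 pair, and 59.1% and 71.8% in the pair with both transgenes, but the controls lay far apart and the edgeR adjusted p was 0.077, 0.0731 and 0.158. ric8a, an exchange factor and chaperone of G protein alpha subunits, had 3.92% and 6.09% in the controls and 10.2% to 43.3% in the other 6 libraries, with an adjusted p of 0.0658, 0.118 and 0.149. Neither gene overlapped the controls in any group. In the authors' deposited table of their own usage test, Arp2 had an adjusted p of 0.00233, 0.00112 and 0.00654 with cbc, PCF11 and both. For ric8a that table gives 4.2e-07, 0.000588 and 0.0813.

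Between the single transgenes no member passed the usage test by edgeR, where 0% of all entries did, nor by DESeq2; 2 of 73 members had an unadjusted edgeR p under 0.05, against 8.53% of all entries. These were Marf, the mitofusin of mitochondrial fusion, and Mvb12, an ESCRT-I subunit. Marf had proximal shares of 63.2% and 62.5% with PCF11 and 46.9% and 49.9% with cbc, a log2 odds ratio of 0.85 ± 0.27 for PCF11 over cbc (edgeR adjusted p = 0.582). For nonC that ratio was 1.28 ± 0.61 (0.592), and for TH1 it was -0.25 ± 0.52 (0.95). Standard errors of this size leave room for differences in either direction for TH1.

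The authors' deposited table of their own per-gene usage test, with other statistics, lists 65, 63 and 64 of the members for cbc, PCF11 and both. Of these, 27, 24 and 28 in the authors' deposited table had an adjusted p under 0.05, where 201 of 421, 222 of 427 and 233 of 424 of all its entries did. Toward the proximal site went 15, 16 and 13 of these members, beside 100 of 164, 138 of 187 and 120 of 193 autosomal entries with 2 sites under that threshold in the authors' deposited table. Of the members that edgeR called, 6 of 8, 5 of 6 and 5 of 7 had an adjusted p under 0.05 in the authors' deposited table. It does not list Usp7 or sno, which are the remaining calls, and so holds no result for them. In all 8 libraries the proximal share of both genes was below the site share minimum of 0.05 set in the authors' run. Whether that setting is why they are absent was not tested.

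Reads summed over both sites were tested in 75 members, relative to all listed genes (edgeR quasi-likelihood test with TMM factors, adjusted over 523 entries). With cbc, 11 members rose and 9 fell, 26.7% of the members against 23.1% of all entries, of which 12.6% rose and 10.5% fell. With PCF11, 8 rose and 8 fell, 21.3% against 21.4% of all, of which 11.5% rose and 9.94% fell. With both, 13 rose and 12 fell, 33.3% against 32.9% of all, of which 18.0% rose and 14.9% fell. These shares, too, lie near the background, and the median log2 change of the members was -0.03, 0.08 and 0.11 beside -0.03, 0.00 and 0.02 over all entries. In testes sampled whole, fewer cells of a type and less RNA per cell cannot be told apart. The counts fell to 12 and 9 for cbc without its library 1 or 2, to 8 for PCF11 without its library 1 and to 13 for both without library 2 of that group.

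In all, 30 members passed for reads in at least 1 comparison, 16 higher and 14 lower, and 14 passed in all 3 with the same direction: TH1, Arp2, CG14207, par-6, Stim, eIF2alpha and C3G rose, and mahe, Imp, rngo, Rab40, CG7766, Miga and ewg fell. The 3 comparisons share the controls. Miga lost each call without control library 2 or either library of the overexpression group (log2 change -0.77 to -0.49 over such fits). Stim lost that for cbc without control library 2 or either cbc library (0.63 to 0.72). Only CG14207, CG1486, TH1, ewg and sno passed for both usage and reads. Of the 30, 6 have a window that overlaps another gene (CG13004, CG6961, Imp, Tis11, eIF2alpha and rngo), and the distal windows of eIF2alpha and rngo, on opposite strands, share 22 bases, so their reads cannot be told apart there.

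The largest rises were those of TH1 and Arp2. TH1 had 619 and 483 CPM in the control pair, 2586 and 2939 CPM in the cbc pair, 1682 and 2153 CPM in the PCF11 pair, and 1117 and 2386 CPM in the pair with both transgenes. Arp2 had 179 and 176 CPM in the control pair, 818 and 718 CPM in the cbc pair, 746 and 683 CPM in the PCF11 pair, and 577 and 1283 CPM in the pair with both transgenes. For both genes every overexpression library was above the controls by more than the controls differed. The log2 changes of TH1 were 2.33 ± 0.29, 1.80 ± 0.29 and 1.67 ± 0.29 (edgeR adjusted p = 2.8e-05, 0.000333 and 0.00037), or 5.03-fold, 3.49-fold and 3.19-fold. Those of Arp2 were 4.32-fold, 4.02-fold and 5.22-fold (edgeR adjusted p = 0.000329, 0.000553 and 9.8e-05).

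CG14207 rose 2.28-fold, 2.47-fold and 3.06-fold (edgeR adjusted p = 0.000869, 0.000517 and 8.4e-05). par-6, a polarity protein that acts with atypical protein kinase C, rose 2.01-fold, 2.04-fold and 2.69-fold, from 802 and 704 CPM in the controls to between 1355 and 2190 CPM in the other libraries, nearly all at its distal site (adjusted p 0.0016, 0.00152 and 8.9e-05). C3G, an exchange factor for the GTPase Rap1, rose 1.97-fold, 2.06-fold and 2.20-fold, and CG1486 rose 2.39-fold with cbc (adjusted p = 0.0474), where its control libraries held 81 and 65 reads. The call of CG1486 held in 1 of 4 fits that leave out 1 library (log2 change 0.95 to 1.63), not without control library 2 or either cbc library. C3G kept its call in all such fits with both, not without control library 2 for cbc or PCF11, nor without either cbc library or PCF11 library 1. Named after their values were seen, Stim, the calcium sensor of the endoplasmic reticulum, rose 1.60-fold, 1.99-fold and 2.54-fold, and eIF2alpha, the initiation factor subunit that stress kinases phosphorylate, rose 1.81-fold, 1.60-fold and 1.62-fold.

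mahe, a DEAD-box RNA helicase with the most control reads of any member, had 20888 and 25191 CPM in the control pair, 14366 and 12459 CPM in the cbc pair, 14558 and 13994 CPM in the PCF11 pair, and 13911 and 12154 CPM in the pair with both transgenes. All 6 lay below both controls, with folds of 0.582, 0.620 and 0.566 (edgeR adjusted p = 0.000144, 0.000517 and 9.1e-05). Rab40, a small GTPase, fell to 0.489, 0.550 and 0.558 of the control, and rngo, a ubiquitin-binding protein of the Ddi1 family, to 0.665, 0.587 and 0.575. CG7766 fell to 0.635, 0.725 and 0.695 and ewg to 0.673, 0.674 and 0.681. CG2129 fell to 0.315 with cbc and 0.424 with both, on 39 to 77 reads per library of those groups, and with both HDAC4, a class IIa histone deacetylase, fell to 0.502. CG3309 fell to 0.262 with both, but its controls held 39 and 127 reads; the log2 change was -1.93, ran from -2.44 without control library 1 to -1.10 without control library 2, and passed only in the former of the 4 fits (edgeR adjusted p 0.00489 to 0.259). HDAC4 lost its call without library 1 of the pair with both transgenes, and CG2129 without cbc library 1 for cbc and without control library 2 or library 2 of that pair for both. In such fits mahe passed throughout, while the log2 changes of Rab40 ran from -1.29 to -0.71, -1.13 to -0.55 and -1.11 to -0.52 and those of CG7766 with PCF11 from -0.62 to -0.29. Without control library 1, Rab40 lost all 3 calls, ewg lost all 3, CG7766 lost 2 and rngo lost that for cbc. Overexpression libraries also decided calls: ewg lost each call without either library of that pair, rngo lost that for cbc without either cbc library and that for PCF11 without PCF11 library 1, CG7766 lost that for PCF11 without either PCF11 library, and Rab40 lost those for cbc, PCF11 and both without cbc library 2, without either PCF11 library and without library 2 of the pair with both. CG7766 lost that for both without the same library 2.

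Imp, an RNA-binding protein that also marks hub and cyst lineage cells, had 13566 and 13127 CPM in the control pair, 9056 and 7955 CPM in the cbc pair, 6990 and 8273 CPM in the PCF11 pair, and 7355 and 7168 CPM in the pair with both transgenes. Every overexpression library lay below both controls, with folds of 0.637, 0.572 and 0.544 (edgeR adjusted p = 0.00095, 0.000226 and 8.9e-05). Of the 8 cyst and hub markers looked for, 3 are listed, and their summed level was 20004 and 21509 CPM in the control pair, 14772 and 14782 CPM in the cbc pair, 11940 and 13586 CPM in the PCF11 pair, and 12254 and 12369 CPM in the pair with both transgenes. Imp made up most of that sum. chinmo, a transcription factor of cyst and germ line stem cells on an autosome, had 5110 and 6841 CPM in the controls and 3401 to 4906 CPM in the other 6 libraries, all below both controls. The other 5 are not among the listed entries, so whether they are at 0 is not known. The third, zfh1, a cyst stem cell factor on an autosome, had 1328 and 1542 CPM in the controls and 1195 to 1922 CPM in the others, which overlapped. The part of a shift in cell types in the read changes of the members was not tested.

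**Figure D4:**
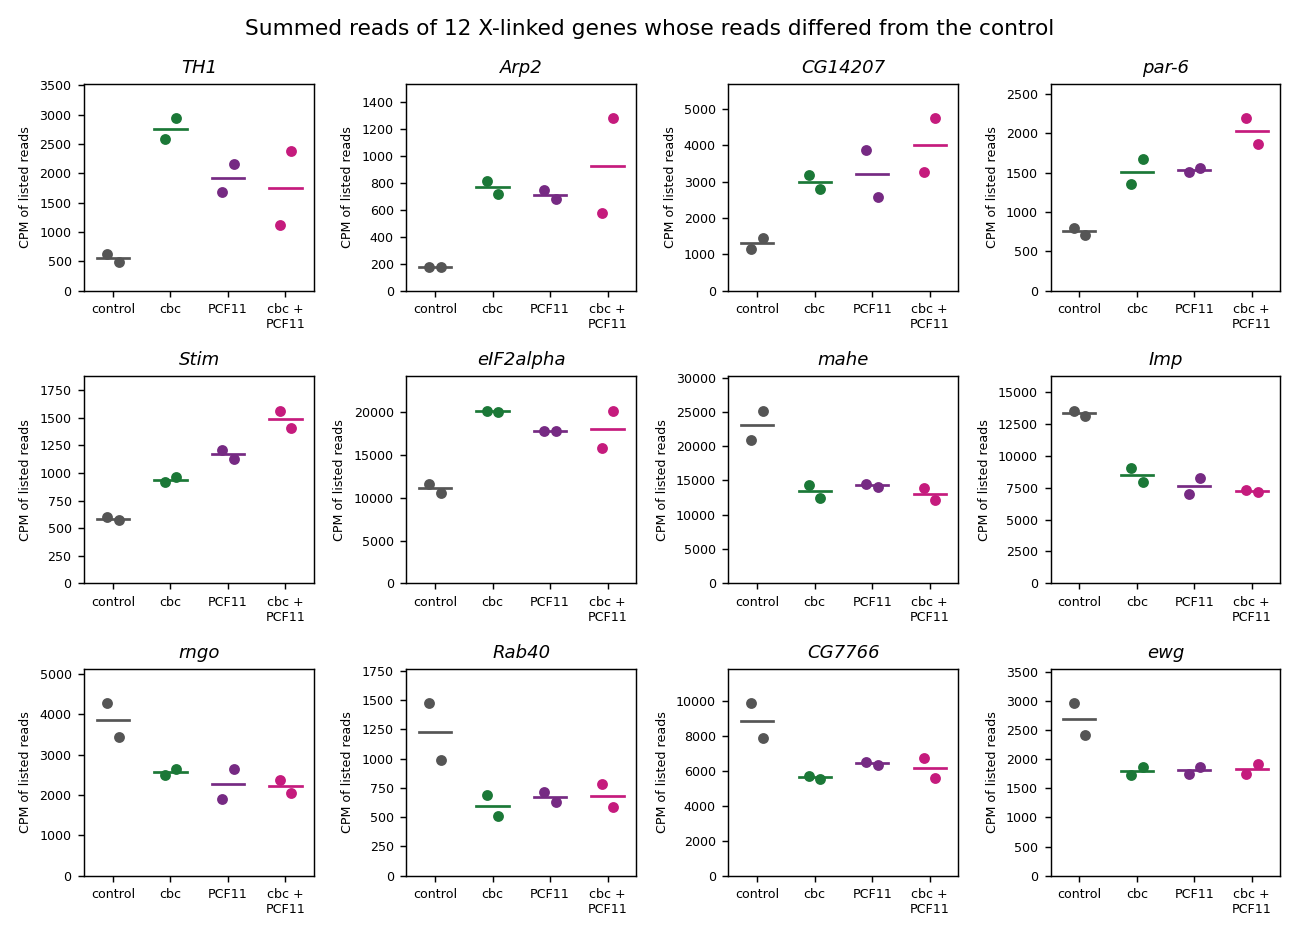
Reads summed over both sites in CPM of listed reads, per library, for 12 X-linked genes that passed the summed-read test in all 3 comparisons; dots are libraries, bars are group means of n = 2 and axes start at 0. TH1 to eIF2alpha rise in all 6 overexpression libraries, mahe to ewg fall, and the 2 libraries with both transgenes lie far apart for TH1 and Arp2.

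Between the single transgenes no member passed for reads by edgeR or DESeq2, where 0% of all entries did by edgeR; 4 of 75 members had an unadjusted edgeR p under 0.05, against 6.5% of all entries. The role lists were drawn up with earlier results of these data known, and their counts support nothing beyond the genes themselves. Of the 5 members on the transcription and chromatin list (IntS6, TH1, ewg, sno and xmas), 3 rose and 1 fell in usage under cbc. Under PCF11 1 rose and 1 fell, and 2 rose and 1 fell when both were expressed. Of all entries, 7.56%, 10.5% and 10.3% were called. The list is not complete. Among others it leaves out CoRest, which passed for usage only with both, and HDAC4, which passed for usage in no comparison. In reads TH1 rose and ewg fell in all 3 comparisons, and sno fell with both, to 0.613 of the control (edgeR adjusted p = 0.0343), which did not pass without control library 2 (log2 change -0.27 against -0.71) or without either library of that pair. xmas, an mRNA export factor, had 10 to 58 reads per library and passed in no comparison. The ubiquitin list held Usp7, which fell in usage, and Usp16-45, which did not pass. The vesicle list held Rab40 and Chc, the clathrin heavy chain, whose reads fell with cbc to 0.773 of the control (edgeR adjusted p = 0.0248). Chc lost that call without control library 2 or either cbc library (log2 change -0.40 to -0.34 over the 4 fits that leave out 1 library). The kinase list held nonC and par-6, the RNA list nonC alone, and the mitochondria list CG1486 and Marf. These lists are not complete inventories of the members either. The RNA list, for example, leaves out Imp and mahe, and the vesicle list leaves out Mvb12. No member belongs to the dosage compensation or the cleavage and polyadenylation list.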

How the data were processed

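The authors counted reads at poly(A) sites of 8 libraries with PolyA-miner and deposited these raw counts. Per the header of its log, the run used 30 bp windows on a supplied list of sites, strand setting 0 (counting without strand), no molecular identifiers, a gene minimum of 10 and a site share minimum of 0.05. Per the submitters' processing notes, Bowtie and SAMtools (no versions) were used with dm6/BDGP6. The authors' deposited result tables also give a proximal fraction per group and an adjusted p-value per gene, per the file headers; these are shown only where credited to the authors. How reads were trimmed is not given.

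All entries were tested together, and only X-linked results are printed. Proximal and distal counts were compared with edgeR 4.0.16 (R 4.3.3): the model held each library, the site and the interaction of site and group, over all 8 libraries. Tested were 516 entries averaging at least 10 reads a library, with at least 5 reads in all on each side. Summed counts were tested for 523 entries with TMM factors, so changes are relative to listed genes. The threshold was a Benjamini-Hochberg adjusted p of 0.05, and standard errors are approximate (coefficient over the root of F). Both tests were run on simulated data with a fixed spread, with a limit on the calls among unchanged entries. A minimum of recovered changes was set for the summed-read test alone, not for usage. Library totals were not analysed here. Of 17807 genes in the authors' list, 17017 matched the annotation by symbol and 99.6% of these had the same start and end, so it placed the windows; all 77 member symbols matched. Library pairs of a group differed by 4.77 to 13.7 times the chi-square that counting noise gives over X-linked sites, so none was taken for a duplicate.

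The rule for the members used only position and site number. That rule, the role and marker lists and the naming rule were set with earlier results of these data known. Named were all members that passed for usage, the 4 largest rises and falls in reads per comparison, list members, and the extremes of control share, reads and distance. Alternatives were DESeq2 1.42.0, a replicate block, read minima, other scaling factors, only the 4 libraries compared, pooled shares, leaving out genes with overlaps, and leaving out each library.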

Additional observations from a re-analysis of the deposited data

How the results depend on the processing

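With only the 4 libraries compared in the fit, 2 members passed for usage and 15 for reads with both transgenes. The median X-linked share became the pooled 44.3%, 42.2%, 43.8% and 42.1% for control, cbc, PCF11 and both when reads were summed, and 28.7% for cbc over genes with a mean of 50 or more reads. Leaving out 1 library at a time gave 0 to 6 usage calls for cbc, 2 to 6 for PCF11, 1 to 8 for both and 0 to 0 between the single transgenes, and 9 to 20, 8 to 17, 13 to 20 and 0 to 0 calls for reads; the median share ranged from 22.6% to 24.7%, 29.3% to 30.7%, 25.4% to 30.3% and 22.9% to 27.5%. The cause was not tested. Of the 82 calls of single members, all 82 held under DESeq2, 72 under the replicate block and 58 with only the 4 libraries compared; none reversed under any alternative, and 2 of 21 usage calls and 27 of 61 read calls passed in every fit without 1 library. Over all entries, usage calls for cbc were 62 with DESeq2, 26 with the replicate block and 24 with only the 4 libraries compared, against 39. With only those 4 libraries they were 25 for PCF11 against 54 and 15 for both against 53. Leaving out single libraries lowered the usage calls over all entries to 3 for cbc without either cbc library, to 12 and 18 for PCF11 and to 28 and 7 for both.

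Same-numbered libraries showed no strong shared deviation: their deviations correlated at -0.112 to 0.128 for reads and -0.052 to 0.068 for log odds. The labels do not say whether same-numbered libraries were made together. With the replicate block the members called were 6, 5, 6 and 0 for usage and 18, 15, 23 and 0 for reads. There were 2 libraries a group and a median of 202 to 260 reads per member and library. The smallest shift that could be detected is not reported here. Simulated shifts of fixed sizes served only to check the tests.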

Other observations

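The 4 X-linked entries with 3 windows were set as the most proximal window against the others. CG12992 had a mean proximal share of 12.3% ± 7.27 (SD, n = 2) in the control, 18.5% ± 1.84 with cbc, 24.8% ± 4.05 with PCF11 and 23.2% ± 0.391 with both, and did not pass the usage test (edgeR adjusted p 0.168 to 0.435). CG2186 had 9.68% ± 2.95 in the control, no proximal read among 87 with cbc or 79 with both, and 7.61% ± 2.10 with PCF11. Its usage did not pass (edgeR adjusted p 0.141, 0.889 and 0.147), and its reads fell with both by 1.36 on the log2 scale (edgeR adjusted p = 0.0469). LIMK1, the kinase that phosphorylates the actin-severing protein cofilin, stayed under 4% on average in every group, and CG14269 had 9 to 60 reads per group. Among the members, ebo had no proximal read of 1071 in the control and 18 of 1029 with PCF11. All 18 came from library 1, library 2 had none, and the usage test did not pass (edgeR adjusted p = 0.192).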
